A study of Homo sapiens with 10 samples.

Results

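NF-κB feedback genes and inflammatory cytokines were examined in RPE-1 cells after sulforaphane (SFN). The set holds 10 genes, found by their symbols among the 28380 genes of the deposited count table, and each of the 10 was present. They are NFKBIA, TNFAIP3 and RELB, which belong to the NF-κB pathway itself, the interleukin-6 family ligands IL6, IL11 and LIF, and the chemokines CXCL8, CXCL1, CXCL2 and CCL2. RPE-1 is an established line of human retinal pigment epithelial cells immortalized with telomerase. The cells were kept for 4 h with the vehicle DMSO (5 replicates) or with 25 µM SFN (5 replicates), an isothiocyanate from cruciferous vegetables, and neither group received an inflammatory stimulus according to the labels and methods. The RNA was read by QuantSeq, which counts the 3′ ends of transcripts.

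NF-κB is a family of dimeric transcription factors held in the cytoplasm by IκB proteins. Tumor necrosis factor, interleukin-1 and Toll-like receptors act through the IκB kinase, which marks IκB proteins for degradation and frees NF-κB to enter the nucleus. Among the genes NF-κB then switches on are its own inhibitors, which end the response, and cytokines that call in leukocytes. Retinal pigment epithelial cells are a known source of CXCL8, IL6 and CCL2 when the eye is inflamed. Because each library came from a whole culture, fewer cells of a type and less RNA per cell cannot be told apart.

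The difference between SFN and DMSO was tested with the quasi-likelihood test of edgeR in the 13378 genes that passed a filter on low counts. P-values were adjusted over these genes after Benjamini and Hochberg, and a gene was called at an adjusted p under 0.05. Levels are given as CPM, the count as a share of the library's total, on a scale common to all libraries (TMM scaling). CPM compare a gene between libraries. Total counts ranged from 15689294 to 20666692 in DMSO and from 12375860 to 17308706 in SFN. DMSO replicate 1 stood apart, with a mean Spearman correlation across genes of 0.935 with the other DMSO replicates, against 0.979 to 0.982 for each of those, and values without it are given beside the members' results and beside calls that it turned. Lower in SFN were 13.9% of all genes tested and higher were 9.07%, so that 39.5% of the calls were increases, against 27.5% when libraries were scaled by their totals only. The labelled cell type was met in part. KRT8, KRT18, BEST1, MITF and OTX2 were counted in every library, PMEL and LRAT at 7 to 29 and 3 to 12 counts. RPE65 and RLBP1, markers of mature pigment epithelium, had at most 4 counts, and TYR was absent. The pigment epithelium markers summed to 582 to 876 CPM in DMSO and 566 to 993 CPM in SFN, mostly KRT8 and KRT18. Markers of fibroblasts or mesenchymal cells summed to 5707 to 6297 CPM in DMSO and 6017 to 8870 CPM in SFN, mostly VIM. MITF and OTX2, transcription factors of the pigment epithelium, were themselves lower in SFN (log2 fold change -1.12, edgeR adjusted p = 5.3e-05, and -0.64, edgeR adjusted p = 0.00288). The other pigment epithelium markers tested had positive log2 fold changes and were not called. These were BEST1 (1.17, edgeR adjusted p = 0.163), KRT18 (0.27, 0.270), KRT8 (0.23, 0.367) and PMEL (0.14, 0.853). Immune cell markers, whose cells also make these cytokines, summed to 1.62 to 2.96 CPM in DMSO and 2.23 to 3.45 CPM in SFN over the 5 markers analysed here, mostly CSF1R. CD14, a monocyte marker, had 0 to 2 counts a library in DMSO and 4 to 18 in SFN, and PTPRC, the pan-leukocyte marker, had at most 6. The part of such cells, or of a shift in pigment epithelial identity, in the results was not tested. The methods call replicates independent in general but do not say for these libraries whether they were separate cultures. The study's own model of these libraries allowed for repeated measures, which it does not define. The p-values therefore measure the spread between these samples, which may be technical.

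The promoters of the members are shown first because NF-κB acts on its target genes by binding short κB sites. RefSeq (GRCh38.p14) gave a window of 250 bases before to 50 bases after the start for 7 of the 10 members, all but RELB, LIF and CCL2. The windows were searched on both strands for the κB consensus, for GGAANTTCC, a κB-like form that can overlap it, and for TGAGTCA or TGACTCA, the site of the AP-1 factor. The κB consensus was found in 5 of the 7 members and either κB form in 6. Each sequence below is written 5′ to 3′ on the gene's strand with 15 bases on either side of the match, and capitals mark the matched letters.
NFKBIA, chr14:35404806-35404845 (-): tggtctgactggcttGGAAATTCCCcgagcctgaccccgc
TNFAIP3, chr6:137867177-137867228 (+): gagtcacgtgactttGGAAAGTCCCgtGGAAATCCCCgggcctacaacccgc
IL6, chr7:22727112-22727151 (+): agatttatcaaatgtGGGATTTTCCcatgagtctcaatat
CXCL1, chr4:73869299-73869339 (+): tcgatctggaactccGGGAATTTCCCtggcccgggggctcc
CXCL2, chr4:74099248-74099288 (-): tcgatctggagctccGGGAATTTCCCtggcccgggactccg
CXCL8, κB form, chr4:73740463-73740501 (+): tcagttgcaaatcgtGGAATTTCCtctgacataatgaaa
CXCL8, AP-1 site, chr4:73740417-73740453 (+): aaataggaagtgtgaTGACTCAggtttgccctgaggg
IL11, AP-1 site, chr19:55370538-55370574 (-): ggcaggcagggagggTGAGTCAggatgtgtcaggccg

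The κB matches began between 55 bases (TNFAIP3) and 91 bases (CXCL8) before the start. TNFAIP3 carried a pair of them side by side. In CXCL1 and CXCL2 the matched stretch was the same in both genes and held 2 overlapping matches, shifted by 1 base. CXCL8 held GGAATTTCC without a full consensus, together with an AP-1 site 137 bases before the start. IL11 had an AP-1 site and no κB match in this window. Among all 35116 promoter windows of this length, 11.3% held the κB consensus, 0.965% held GGAANTTCC and 4.95% an AP-1 site. The share of windows with either κB form is not given here. The members were listed by pathway, so the number of them with a match is not a test. A match is a description of these letters and not evidence of binding.

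Both NF-κB inhibitors among the members were lower in SFN. TNFAIP3 (ENSG00000118503, GRCh38 chr6:137867214-137883314, plus strand, 9 exons) encodes A20, an enzyme that edits ubiquitin chains and switches off signaling upstream of the IκB kinase. Its level was 2.62, 6.01, 5.93, 5.78 and 4.68 CPM in DMSO replicates 1 to 5 and 1.91, 1.21, 1.12, 1.48 and 1.13 CPM in SFN replicates 1 to 5, from 42 to 132 and 14 to 32 counts. Every SFN library lay below every DMSO library, and the nearest values were those of both replicates numbered 1. TNFAIP3 fell by 1.86 on the log2 scale (SE 0.27, 95% interval -2.43 to -1.28, edgeR adjusted p = 0.000381, n = 5), or 3.62-fold, from 5.00 ± 1.44 to 1.37 ± 0.335 CPM (SD). The fold was 4.04 without DMSO replicate 1. This call was made in 18 of 18 alternative analyses. An antisense gene, WAKMAR2, overlaps TNFAIP3 but had 22 counts over all libraries.

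NFKBIA (ENSG00000100906, chr14:35401079-35404749, minus strand, 6 exons) encodes IκBα, the inhibitor that returns NF-κB to the cytoplasm. It was measured at 27.2, 15.04, 13.1, 12.8 and 13.4 CPM in DMSO replicates 1 to 5 and at 10.4, 11.5, 8.86, 5.74 and 6.85 CPM in SFN replicates 1 to 5. DMSO replicate 1 was far above the rest, but the groups did not overlap with or without it, and SFN replicates 4 and 5 were lowest. NFKBIA fell by 0.91 on the log2 scale (SE 0.25, 95% interval -1.47 to -0.36, edgeR adjusted p = 0.0224, n = 5), from 16.3 ± 6.12 to 8.67 ± 2.39 CPM (SD). Without DMSO replicate 1 it fell by 0.66 (edgeR adjusted p = 0.00674). The call was lost without SFN replicate 4 (edgeR adjusted p = 0.0538), without SFN replicate 5 (0.0525) and under limma-voom (0.0626), with log2 differences of -0.79, -0.84 and -0.75.

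RELB (ENSG00000104856, chr19:45001461-45038192, plus strand, 12 exons), the NF-κB subunit of the noncanonical pathway and a target of NF-κB, was not called. Its DMSO libraries read 2.24, 1.32, 0.951, 1.02 and 1.48 CPM in replicates 1 to 5, and its SFN libraries 2.21, 1.64, 1.41, 1.42 and 0.988 CPM, from 14 to 37 counts. The groups overlapped over most of their range, with both replicates numbered 1 highest in their group. The log2 fold change was 0.14 (SE 0.30, 95% interval -0.52 to 0.79, edgeR adjusted p = 0.797), so changes within this interval were not excluded by these libraries. It was -0.04 without SFN replicate 1 and 0.36 without DMSO replicate 1.

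**Figure D1:**
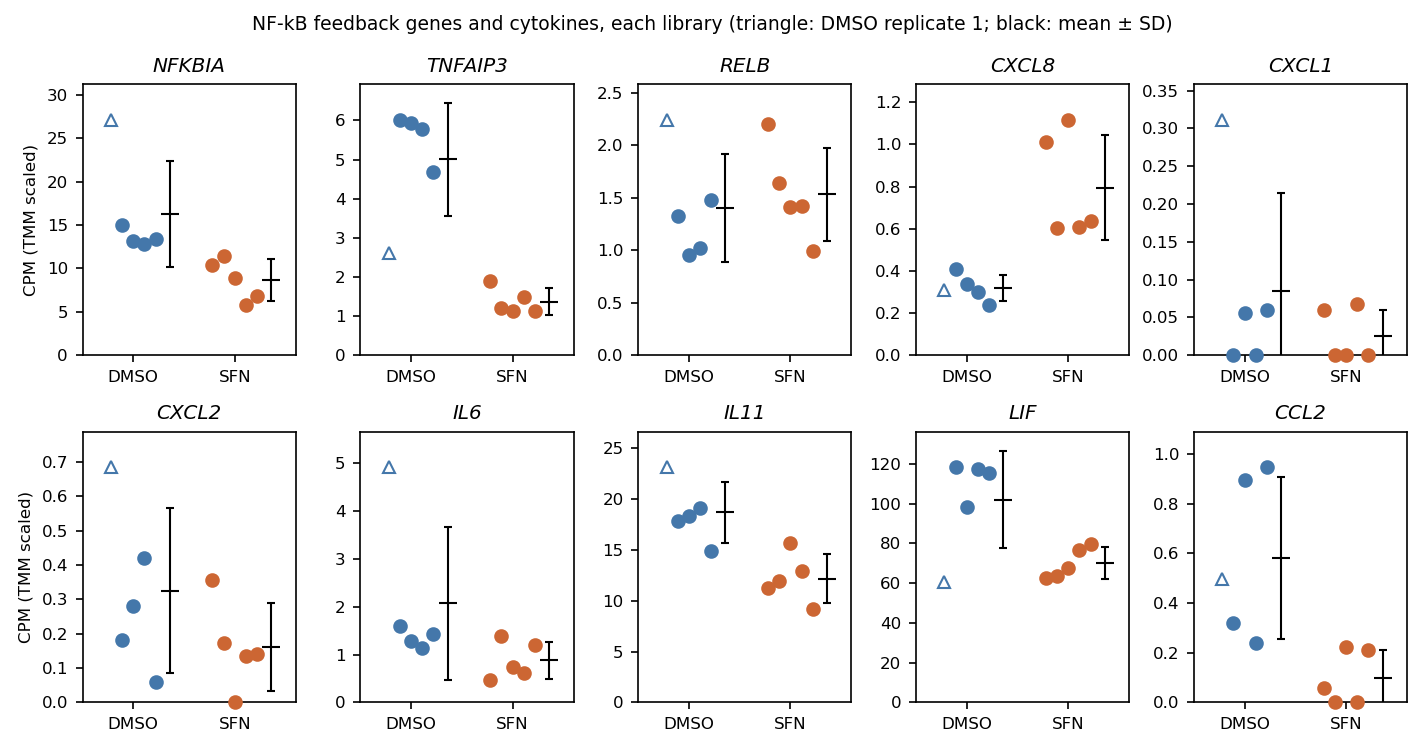
Levels of the 10 members in each library, 1 panel per gene, as CPM on a linear axis. Points are libraries of the DMSO and SFN groups (5 each), with DMSO replicate 1 drawn with its own marker, and lines show the group mean and SD, cut at 0. TNFAIP3, NFKBIA and CCL2 sit lower in all 5 SFN libraries than in any DMSO library, and CXCL8 sits higher. Of all genes tested, which include TNFAIP3 and NFKBIA but not CCL2 or CXCL8, 11.1% had every SFN library below every DMSO library. The share for the opposite order is not given here.

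The interleukin-6 family ligands signal through the shared receptor chain gp130 to STAT3. LIF, IL11 and IL6 all had lower mean levels in SFN, and LIF and IL11 were called. LIF (ENSG00000128342, chr22:30240453-30246759, minus strand, 3 exons), leukemia inhibitory factor, is known in the retina as a survival signal for photoreceptors. It had the most counts of the members, 736 to 2600 a library. LIF was at 60.7, 118, 98.5, 117 and 116 CPM in DMSO replicates 1 to 5 and at 62.8, 63.5, 67.5, 76.9 and 79.9 CPM in SFN replicates 1 to 5. The groups overlapped through DMSO replicate 1 alone, which lay below every SFN library. LIF fell by 0.54 on the log2 scale (SE 0.17, 95% interval -0.92 to -0.16, edgeR adjusted p = 0.0432, n = 5), from 102 ± 24.5 to 70.1 ± 7.85 CPM (SD). Without DMSO replicate 1 it fell by 0.69 (SE 0.095, edgeR adjusted p = 6.27e-05) and the groups were apart. The call was lost in 8 of 10 analyses that left out 1 library, all but those without DMSO replicate 1 or SFN replicate 5, with adjusted p between 0.0698 and 0.106. LIF-AS2, on the opposite strand, overlaps LIF at the 5′ ends of both genes and had 707 counts over all libraries.

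IL11 (ENSG00000095752, chr19:55364382-55370463, minus strand, 5 exons), interleukin-11, is known for its part in fibrosis and for induction by TGF-β. Its level was 23.2, 17.9, 18.4, 19.2 and 14.9 CPM in DMSO replicates 1 to 5 and 11.3, 11.9, 15.7, 12.9 and 9.18 CPM in SFN replicates 1 to 5. Only SFN replicate 3 reached into the DMSO range, above DMSO replicate 5. IL11 fell by 0.62 on the log2 scale (SE 0.16, 95% interval -0.97 to -0.27, edgeR adjusted p = 0.0159, n = 5), from 18.7 ± 2.97 to 12.2 ± 2.39 CPM (SD). This call was made in 18 of 18 alternatives, with adjusted p up to 0.0456, and the log2 difference was -0.53 without DMSO replicate 1.

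IL6 (ENSG00000136244, chr7:22725884-22732002, plus strand, 5 exons) encodes interleukin-6, the family's acute inflammatory cytokine. It read 4.92, 1.59, 1.29, 1.14 and 1.42 CPM in DMSO replicates 1 to 5 and 0.477, 1.38, 0.745, 0.607 and 1.20 CPM in SFN replicates 1 to 5, from 19 to 79 and 8 to 17 counts. DMSO replicate 1 was about as high as the other 4 together, and those overlapped with SFN replicates 2 and 5. The log2 fold change was -1.24 (SE 0.47, 95% interval -2.28 to -0.21, edgeR adjusted p = 0.0823) and did not pass the threshold, though it did with DESeq2 (adjusted p = 0.0449). Without DMSO replicate 1 it was -0.67 (edgeR adjusted p = 0.106). STEAP1B, which overlaps IL6 on the opposite strand, had 5860 counts over all libraries. The shared stretch holds the 5′ ends of both genes, not the 3′ ends that QuantSeq counts. Whether counting used the strand is not given in the sources used here.

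**Figure D2:**
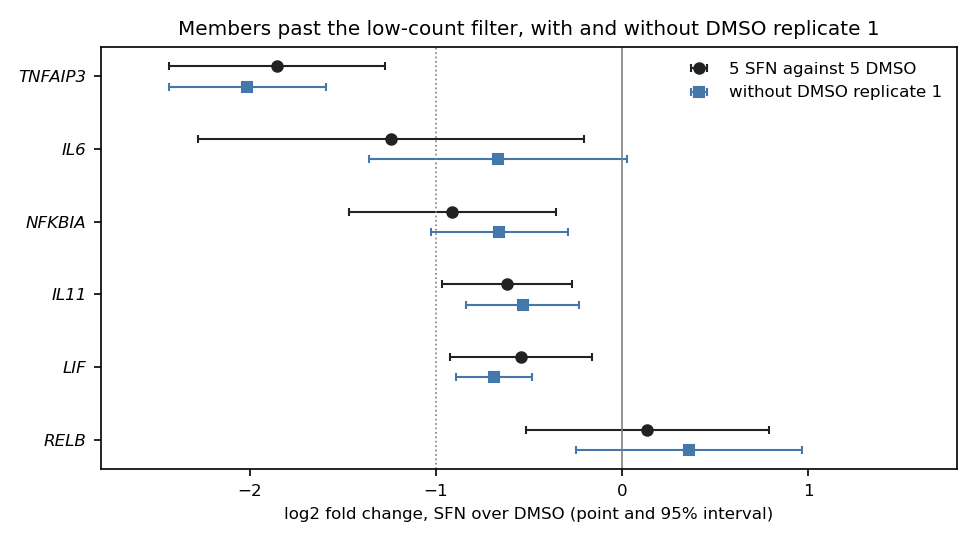
Log2 fold change, SFN over DMSO, of the 6 members that passed the filter on low counts, with 95% intervals from the edgeR fit, for all 10 libraries (black) and without DMSO replicate 1 (blue). The intervals of TNFAIP3, NFKBIA, IL11 and LIF lie below 0 in both, that of IL6 reaches 0.03 without DMSO replicate 1, and that of RELB spans 0. The dotted line marks a 2-fold decrease.

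Of the 10 members, 6 passed the filter on low counts, and 4 of these 6 were called lower, against 13.9% of all genes tested. None of these 6 was called higher, also at an unadjusted p under 0.05, under DESeq2 and under limma-voom. TNFAIP3 alone was called with a more than 2-fold decrease, a class that held 5.76% of all genes tested. For TNFAIP3 and NFKBIA every SFN library lay below every DMSO library, which was so for 11.1% of all genes tested. Without DMSO replicate 1 the same 4 members were called lower, when 23.5% of all genes tested were. The median log2 fold change of the 6 was -0.76, and that of all genes tested was -0.03.

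The chemokines CXCL8, CXCL1, CXCL2 and CCL2 had too few counts for the filter, at most 17 in any library, and were compared by exact permutation tests of the CPM over the libraries, two-sided. With 5 against 5 libraries the smallest p such a test can give is 0.00794. Any gene whose groups do not overlap gets this p, so it adds nothing to the separation. The share of genes under the filter with such a separation is not given here. CXCL8 and CCL2 moved in opposite directions, and CXCL1 and CXCL2 were near the limit of detection.

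CXCL8 (ENSG00000169429, chr4:73740519-73743716, plus strand, 4 exons) encodes interleukin-8, which attracts neutrophils. It had 5, 9, 6, 5 and 4 counts in DMSO replicates 1 to 5 and 17, 7, 15, 9 and 9 counts in SFN replicates 1 to 5. In CPM the groups did not overlap, from 0.237 to 0.410 in DMSO and from 0.604 to 1.12 in SFN. The mean was 0.319 ± 0.0627 CPM in DMSO and 0.795 ± 0.249 CPM in SFN (SD, exact permutation p = 0.00794, n = 5). The ratio of the summed counts, scaled for depth, was 2.48, with a 95% interval of 1.56 to 4.03 that covers counting error only. In the edgeR fit with no filter the log2 fold change of CXCL8 was 1.28 (SE 0.44), which did not pass the threshold (adjusted p = 0.0760).

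CCL2 (ENSG00000108691, chr17:34255274-34257208, plus strand, 3 exons) encodes MCP-1, which attracts monocytes. It had 8, 7, 16, 4 and 16 counts in DMSO replicates 1 to 5 and 1, 0, 3, 0 and 3 counts in SFN replicates 1 to 5. The groups did not overlap, but the nearest libraries, DMSO replicate 4 and SFN replicate 3, were 0.241 and 0.223 CPM. The mean was 0.580 ± 0.325 CPM in DMSO and 0.0990 ± 0.111 CPM in SFN (SD, exact permutation p = 0.00794, n = 5). The ratio of summed counts, SFN to DMSO, was 0.173 (95% counting interval 0.0664 to 0.384), and the edgeR fit with no filter gave a log2 fold change of -2.46 (SE 0.75, adjusted p = 0.0394).

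CXCL1 (ENSG00000163739, chr4:73869393-73871308, plus strand) and CXCL2 (ENSG00000081041, chr4:74097040-74099196, minus strand) encode related chemokines for neutrophils. CXCL1 had 5, 0, 1, 0 and 1 counts in DMSO replicates 1 to 5 and 1, 0, 0, 1 and 0 counts in SFN replicates 1 to 5. CXCL2 had 11, 4, 5, 7 and 1 counts in DMSO and 6, 2, 0, 2 and 2 counts in SFN. Neither gene separated the groups, with an exact permutation p of 0.643 for CXCL1 and 0.238 for CXCL2 (n = 5). The ratio of summed counts, SFN to DMSO, was 0.361 for CXCL1 (95% counting interval 0.0366 to 1.89) and 0.541 for CXCL2 (0.251 to 1.10). A difference was not detected at this depth, and differences within these intervals were not excluded. Both genes were highest in DMSO replicate 1, and without it the difference in mean, SFN minus DMSO, was -0.00336 CPM for CXCL1 and -0.0744 CPM for CXCL2. Their canonical transcripts were 83.4% identical over the whole length and 63.3% over the last 400 bases, where the longest shared run was 77 bases, so that the division of reads from such shared stretches is uncertain.

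The other genes of the pathway were taken from 9 lists by role, which hold 129 genes with the members. After the filter 91 could be tested, of which 21 were lower and 9 higher in SFN, against 13.9% and 9.07% of all genes tested, so that increases were about as frequent as in the background. Leaving out the members, 17 of 85 were lower and 9 higher. Without DMSO replicate 1 the counts over the lists were 32 lower and 17 higher, when 23.5% of all genes tested were lower and 22.5% higher. These shares are the background for each list that follows, and no list was tested as a set.

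Among the 5 NF-κB subunits REL, which encodes c-Rel, was the one called. REL fell by 2.03 on the log2 scale (SE 0.33, edgeR adjusted p = 0.000968), from 4.57 ± 0.400 to 1.09 ± 0.682 CPM (SD, n = 5). NFKB1, the subunit p105/p50 and the most abundant of those not called by CPM, was at 38.3 ± 10.4 CPM in DMSO and 32.2 ± 4.17 CPM in SFN (log2 fold change -0.25, edgeR adjusted p = 0.426). When DMSO replicate 1 was left out, NFKB1 was called lower (-0.42, edgeR adjusted p = 0.0046), as was NFKB2, encoding p100/p52 (-0.32, edgeR adjusted p = 0.0235), which makes 3 subunits lower with REL. The IκB family was divided. Lower with NFKBIA was NFKBIE, encoding IκBε (log2 fold change -1.40, SE 0.22, edgeR adjusted p = 0.000677). BCL3, a nuclear IκB protein that binds p50 and p52, was also lower (log2 fold change -2.47, SE 0.30, edgeR adjusted p = 0.000129). BCL3 went from 1.44 to 0.251 CPM, with 18 to 41 counts a library in DMSO and 3 to 6 in SFN. NFKBIZ, a nuclear IκB protein that helps induce IL6, was higher, at 6.21 ± 1.44 CPM in DMSO and 12.6 ± 1.86 CPM in SFN. Its log2 fold change was 1.02 (SE 0.18, edgeR adjusted p = 0.00175). Its groups did not overlap, and the share of all genes separated in this direction is not given here. NFKBIZ shares part of its locus with NXPE3 on the same strand, which had 18788 counts over all libraries. Reads from the shared stretch cannot be divided by strand. NFKBIB, encoding IκBβ, was not called with all libraries (log2 fold change 0.26, edgeR adjusted p = 0.543) but was called higher without DMSO replicate 1 (0.64, edgeR adjusted p = 0.000505).

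The list of IκB kinase activation and receptor adaptors had 26 genes tested, of which 3 were lower and 5 higher, or 8 and 6 without DMSO replicate 1. Its one change past 2-fold was RNF31, the catalytic subunit of the linear ubiquitin ligase, which fell by 1.19 on the log2 scale (SE 0.29, edgeR adjusted p = 0.0107). PSME2, with 8931 counts, overlaps RNF31 on the opposite strand, at the 5′ ends of both genes. IRAK1, the interleukin-1 receptor kinase and the most abundant gene not called, had a log2 fold change of 0.31 (edgeR adjusted p = 0.143). The list of NF-κB brakes had 12 genes tested, 3 lower and none higher at the threshold, with 3 higher at an unadjusted p under 0.05. It had 4 lower and 3 higher without DMSO replicate 1. TNFAIP3 was one of the 3, with TNIP2, which binds A20 (log2 fold change -0.39, edgeR adjusted p = 0.0438), and TRAF3IP2 (-0.93, edgeR adjusted p = 0.0147), which despite its place in the list encodes an adaptor that carries interleukin-17 signals toward NF-κB. The call of TNIP2 was made in 7 of 18 alternatives and that of TRAF3IP2 in 17. USP7, the most abundant of the others, had a log2 fold change of 0.09 (edgeR adjusted p = 0.784).

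Among genes induced by NF-κB other than the members, 17 of 32 could be tested, 6 were lower and 2 higher, or 6 and 5 without DMSO replicate 1. The largest decrease was that of BIRC3, encoding the ubiquitin ligase cIAP2, from 3.81 ± 1.16 to 0.402 ± 0.132 CPM (SD, log2 fold change -3.24, SE 0.30, edgeR adjusted p = 2.1e-05, n = 5). IRF1, a transcription factor of interferon responses, fell by 2.08 on the log2 scale (SE 0.14, edgeR adjusted p = 2.1e-06), from 13.0 ± 1.83 to 3.06 ± 0.281 CPM. IL1B, encoding interleukin-1β, fell by 1.91 (SE 0.26, edgeR adjusted p = 0.000298), from 2.37 ± 0.416 to 0.627 ± 0.187 CPM. In each of BIRC3, IRF1 and IL1B every SFN library lay below every DMSO library, as in 11.1% of all genes tested. The 3 calls were made in 18 of 18 alternatives. These genes were named for their change in these data, so neither point is separate support. BIRC3 had 40 to 93 counts a library in DMSO and 4 to 7 in SFN, and IL1B 28 to 58 and 5 to 12. The increases were MMP1, an interstitial collagenase with 4 to 20 counts a library (log2 fold change 1.36, SE 0.36, edgeR adjusted p = 0.0186), and PTGS2, encoding cyclooxygenase-2 (0.83, SE 0.22, edgeR adjusted p = 0.0176), and each of these calls was made in 15 of 18 alternatives. SDC4, a heparan sulfate proteoglycan, was not called with all libraries (0.32, edgeR adjusted p = 0.0660) but was without DMSO replicate 1 (0.24, edgeR adjusted p = 0.0242).

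**Figure D3:**
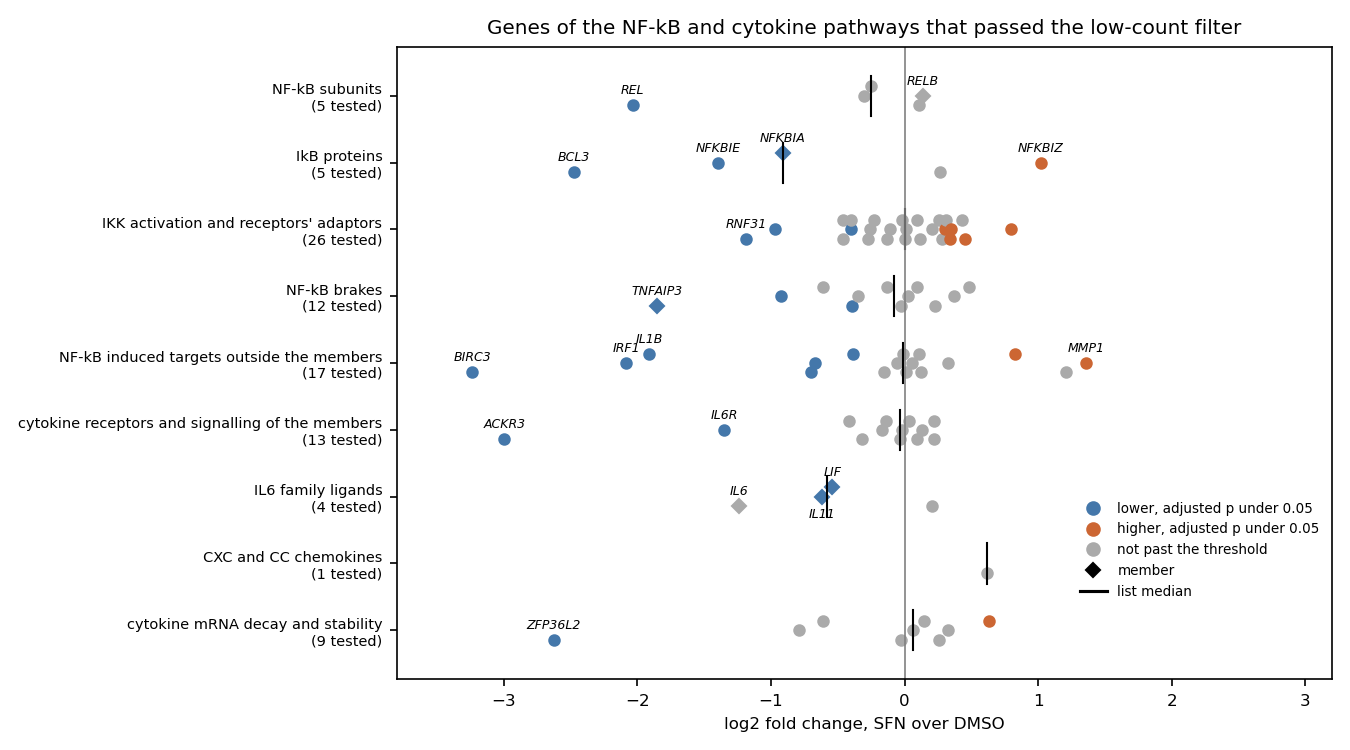
Log2 fold change, SFN over DMSO, of the 91 genes of the 9 lists that passed the filter, 1 row per list. Circles are genes, diamonds are members, colour gives the call at an adjusted p under 0.05, and the vertical bar is the list's median. BIRC3 (-3.24), ACKR3 (-2.997) and ZFP36L2 (-2.63) lie farthest to the left, and MMP1 (1.36) is the called gene farthest to the right.

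The receptors and signaling proteins that serve the members had 13 genes tested, of which 2 were lower and none higher, also at an unadjusted p under 0.05, and 5 were lower without DMSO replicate 1. IL6R, the interleukin-6 receptor, fell by 1.35 on the log2 scale (SE 0.22, edgeR adjusted p = 0.00108), from 4.05 ± 0.939 to 1.58 ± 0.323 CPM (SD, n = 5). ACKR3, despite its place in the list, is an atypical chemokine receptor that binds CXCL12, which is not a member. ACKR3 fell by 2.997 (SE 0.43, edgeR adjusted p = 0.000394), with 22 to 44 counts a library in DMSO and 1 to 6 in SFN. IL6ST, which encodes gp130, had a log2 fold change of 0.22 (95% interval -0.45 to 0.89, edgeR adjusted p = 0.665). In the chemokine list 1 of 19 genes passed the filter, CXCL16, a membrane-bound chemokine, at 1.01 ± 0.204 CPM in DMSO and 1.55 ± 0.137 CPM in SFN (edgeR adjusted p = 0.0670). Of the 9 regulators of cytokine mRNA decay, 1 was lower and 1 higher, or 2 and 1 without DMSO replicate 1. ZFP36L2, which binds AU-rich elements and promotes decay, fell by 2.63 (SE 0.15, edgeR adjusted p = 4.6e-07), from 29.5 ± 3.83 to 4.76 ± 0.741 CPM. Its relative ZFP36, tristetraprolin, had a log2 fold change of 0.63 (SE 0.21, edgeR adjusted p = 0.0486), a call made in 5 of 18 alternatives, and HNRNPD, encoding AUF1, 0.07 (edgeR adjusted p = 0.716).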

How the data were processed

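RNA of 5 DMSO and 5 SFN replicates of RPE-1 cells was sequenced as QuantSeq libraries. The authors used a Bluebee pipeline for alignment, and their processing notes list FastQC, STAR, featureCounts and edgeR. The deposited values are raw counts per gene on GRCh38, not normalized and with replicates separate. Versions, strand setting and use of molecular identifiers are not given in the sources used here.

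Counts were analysed in R 4.3.3 with edgeR 4.0.16 (filterByExpr with a minimum count of 10, TMM, glmQLFit, glmQLFTest), limma 3.58.1 and DESeq2 1.42.0. The methods were tested on simulated counts. Standard errors were derived from the log2 fold change and its F statistic. For members under the filter, an exact two-sided permutation test of mean CPM and a ratio of summed counts with an exact conditional interval were used. Positions are those of GENCODE 44, which held 28145 of the 28380 identifiers. Counts of replicates differed by more than sampling noise (chi-square per degree of freedom 3.50 to 243).

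The members and lists were chosen with earlier results of these data known. Named are the members and, per list, genes with an adjusted p under 0.05 and a more than 2-fold change, at most 6, and the most abundant of the rest. NFKB2, TNIP2, TRAF3IP2, PTGS2 and ZFP36 were named because they complete a small count. Marker genes were set to check the cell type. Alternatives covered scaling, test, filter, a replicate block and leaving out each replicate. The study's model for repeated measures was not run. The nearest form run was limma-voom after quantile normalization, which had no term for repeated measures.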

Additional observations from a re-analysis of the deposited data

Results flagged for a closer look

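DMSO replicate 1 lay far from the other 4 DMSO replicates in 5 measures, judged by its gap to the nearest of them as a share of the group's whole range, against a limit of 0.71. The share was 0.846 for NFKBIA (27.2 CPM), 0.881 for IL6 (4.92 CPM) and 0.81 for CXCL1 (5 counts). It was 0.906 for the TMM scaling factor and 0.933 for the mean correlation with the other DMSO replicates. Over the 26 groups of values examined, chance flags about 1 in 20, or 1.3, and no SFN library was flagged. What sets this library apart was not tested.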

How the results depend on the processing

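The directions of NFKBIA, TNFAIP3, IL6, IL11 and LIF were kept in all 18 alternatives, and RELB reversed without SFN replicate 1, with a range from -0.039 to 0.36 when 1 library was left out. With 1 library left out, genes called ranged from 2383 to 6251 (lower 1470 to 3193, higher 906 to 3058), members called from 2 to 4, all lower, and list genes called from 22 to 49 (lower 16 to 32, higher 5 to 17). The highest values were those without DMSO replicate 1, and 2 members were called without SFN replicate 4. List genes called lower numbered 13 under limma-voom. Those called higher numbered 5 without DMSO replicate 4, DMSO replicate 5 or SFN replicate 3, 5 with scaling by totals only and 4 with no filter. CXCL8 had a log2 fold change of 1.28 in the edgeR fit with no filter and was not called. The cause of these changes was not tested. LIF was not called with no filter (edgeR adjusted p = 0.0501).

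The replicate numbers gave no clear sign of pairing the samples, but 5 correlations cannot exclude it. Same-number deviations from the group means correlated between -0.327 and 0.555, over 0.1 in 1 of 5, and 1 of the 5 DMSO libraries correlated best with the SFN library of its own number. With the replicate block 2441 genes and 4 members were called, and 4 list genes were called higher. The exact tests of CXCL8 and CCL2 were also run with DESeq2 size factors and with library totals, chosen after seeing the data, and gave the same p of 0.00794. Depth limits CXCL1 and CXCL2.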

Other observations

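Levels of the members relative to each other differed between libraries. The ratio of TNFAIP3 to NFKBIA counts was 0.400, 0.451, 0.451 and 0.350 in DMSO replicates 2 to 5 and 0.0963 in DMSO replicate 1. In SFN replicates 1 to 5 it was 0.183, 0.105, 0.126, 0.259 and 0.165, below each of DMSO replicates 2 to 5. The ratio of LIF to IL11 counts overlapped between the groups, at 2.62 to 7.75 in DMSO and 4.30 to 8.71 in SFN.

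CSF2, which encodes the growth factor GM-CSF and is a target of NF-κB, was chosen after its values were seen. It had 14, 3, 6, 7 and 7 counts in DMSO replicates 1 to 5 and 1, 2, 0, 0 and 0 counts in SFN replicates 1 to 5. In the edgeR fit with no filter its adjusted p was 0.0259.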
